A study of Mus musculus with 9 samples.

Results

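The potassium channel genes were taken as every Ensembl gene of the deposited table whose mouse symbol starts with Kcn, other than Kcnj10. They came to 97 of 45904 identifiers, of which 93 were protein coding genes and 4 antisense transcripts. A mean of at least 0.2 FPKM (sequenced fragments scaled by gene length and library depth) over the 9 libraries was needed for a test. This left 83 of the 97, while 14 lay below the filter and 2 of those, Kcnmb3 and Kcnmb4os1, were listed at 0 in every library. Just inside the filter was Kcna7 at a mean of 0.227 FPKM and just outside it Kcna10 at 0.193 FPKM.

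Potassium channels let potassium leave the cell and so set the resting potential, end each action potential and limit how often a neuron fires. In dorsal root ganglia, which hold the cell bodies of sensory neurons beside the spinal cord, they tune the excitability of neurons for touch, pain and body position, and a loss of potassium currents after nerve damage is a known feature of neuropathic pain models. Pore subunits assemble in fours (pairs for the two-pore-domain type). They come in voltage-gated, inwardly rectifying, two-pore-domain (leak) and calcium- or sodium-activated classes, beside silent subunits that alter a partner's gating and auxiliary proteins that bind the pore complex.

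Sequenced RNA came from intact sciatic dorsal root ganglia of C57BL/6 mice, those that send axons into the sciatic nerve, in 3 groups of 3 libraries. Young sham mice were 8 to 10 weeks old and aged sham mice 20 to 22 months old, and both had sham surgery. Aged injury mice were 20 to 22 months old and had a sciatic nerve injury. Each library pooled 2 mice, all ganglia were taken 24 h after surgery, and nothing in the sources used here says whether the animals of a pool shared a litter or a cage, so p-values reflect only how much such pools varied.

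The libraries held between 12846859 and 18738258 reads as recovered from the FPKM steps, with aged injury 1 the deepest and young sham 3 the shallowest. All 10 pan-neuronal genes listed as markers were above the filter, which fits the labelled tissue, and in no list of markers was a gene at 0 in every library. Sex-linked genes split the pools along with age. Xist, which silences an X chromosome in females, was at most 0.02 FPKM in the young libraries, 1.75 FPKM in aged sham 1 and 9.77 to 13 FPKM in the other aged libraries. The summed Y-linked genes of aged sham 1 stood at 69.7% of the young mean, against at most 0.0426% in the other aged libraries. Age and sex of the pools therefore cannot be told apart in any comparison with young mice. Aged sham 1 also stood apart in Atf3, a transcription factor induced by axon damage, at 95.6 FPKM, with aged sham 2 and 3 at 27.1 and 27.3 FPKM. Among the young libraries Atf3 was highest in young sham 2, at 42.3 FPKM, with young sham 1 and 3 at 23.5 and 16.3 FPKM.

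The most abundant members per gene length were single auxiliary and voltage-gated genes. Kcnab2, a cytoplasmic beta subunit of shaker-type channels, averaged 193 FPKM over the 9 libraries and ran from 167 to 227 FPKM. Kcnip3, a calcium-binding partner of Kcnd pores that can also act as a transcriptional repressor, averaged 91 FPKM, and its relatives Kcnip4 and Kcnip2 averaged 52.9 and 34 FPKM. Kcna1 and Kcna2, the shaker-type subunits of myelinated axons, averaged 72.5 and 35.1 FPKM. Other members of the same subfamilies were lower, to varied degrees. The shaker-type Kcna6 and Kcna4 averaged 22.2 and 5.34 FPKM, and Kcna3 and Kcna5 0.446 and 0.761 FPKM. The Kcnd pores Kcnd3 and Kcnd2 averaged 14.8 and 0.378 FPKM. The remaining members of the top 10 were Kcnd1 (a fast-inactivating pore) at 42.6 FPKM, Kcnk1 (a two-pore-domain leak channel) at 32.8 FPKM, Kcns3 (a silent subunit) at 24.6 FPKM and Kcnc4 (a high-threshold pore of fast-repolarizing neurons) at 23.1 FPKM. Kcnab2, Kcnip3 and Kcna1 did not overlap with each other or with a lower gene in any library. Further down, neighbours in the order overlapped: Kcna2, Kcnip2 and Kcnk1 covered 30.7 to 40.7, 28.5 to 39.8 and 27.3 to 41.1 FPKM.

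In all, 23 members averaged at least 10 FPKM, 62 at least 1 FPKM and 21 lay between 0.2 and 1 FPKM, and the median level of the tested members was 4.06 FPKM against 4.73 FPKM for all 17601 genes tested. By class, the median level was 7.45 FPKM for the 30 voltage-gated genes and 3.13 FPKM for the 14 two-pore-domain genes. It was 2.49 FPKM for the 12 calcium- or sodium-activated genes, 2.26 FPKM for the 10 silent subunits, 1.65 FPKM for the 13 auxiliary genes and 1.13 FPKM for the 14 inward rectifiers. The auxiliary class thus held the highest gene and a low median, with accessory genes such as Kcne1 and Kcne2 near 0. Among the two-pore-domain channels known from sensory neurons, Kcnk18, a channel regulated by the calcium-dependent phosphatase calcineurin, stood at 3.23 to 4.92 FPKM. The mechanically and thermally gated Kcnk2, Kcnk4 and Kcnk10 stood at 2.79 to 4.77, 3.98 to 5.11 and 2.02 to 3.04 FPKM. The subunits of the M current, which holds back repetitive firing, included Kcnq3 at 4.41 to 7.21 FPKM and Kcnq5 at 3.59 to 4.54 FPKM. These 6 genes were above 1 FPKM in every library, and none passed the limma test in any comparison, the nearest being Kcnk18 after injury (adjusted p = 0.0549).

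**Figure D1:**
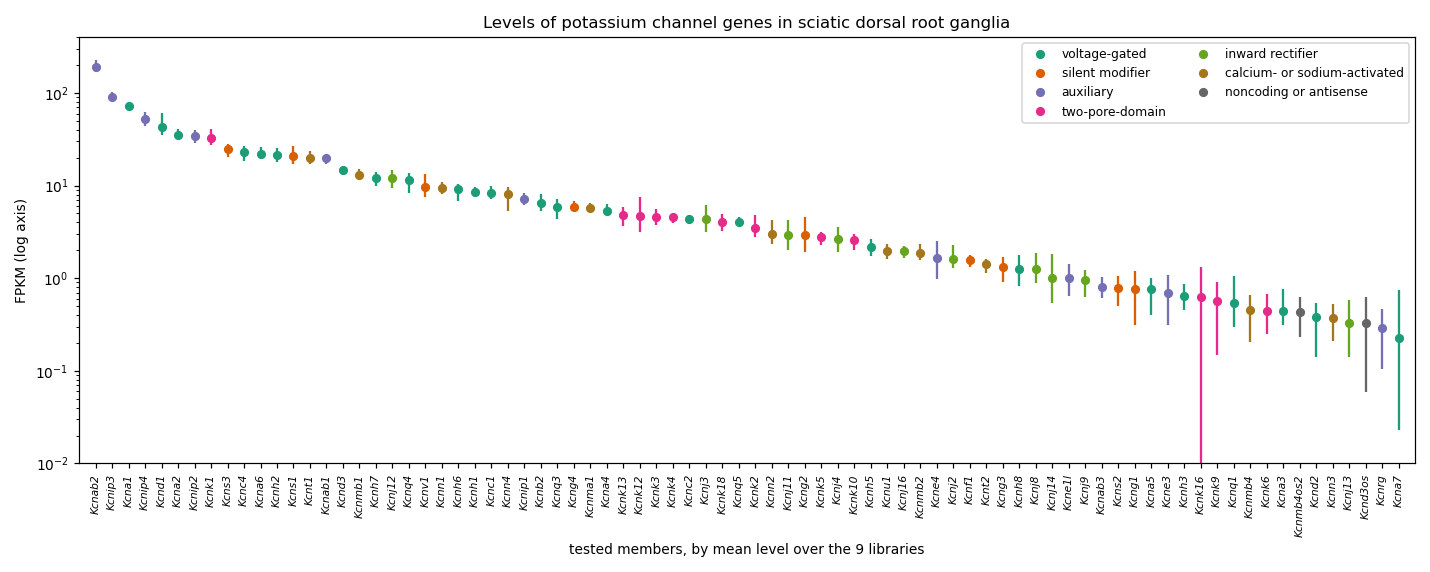
Mean level of 80 of the 83 tested members (points, FPKM on a log axis) over the 9 libraries, with lines from the lowest to the highest library and colours for the class. Kcnab2 leads at 193 FPKM and Kcna7 closes at 0.227 FPKM; the line of Kcnk16 runs to the bottom of the axis because it was at 0 in young sham 3.

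Injury in aged mice was the comparison in which the family moved most in 1 direction. It asks what a sciatic nerve injury changes within 24 h in aged ganglia. By limma, 6 of the 83 tested members were called (7.23%), against 4.11% of all genes, and all 6 fell, against 1.65% of all genes called lower. At an unadjusted p under 0.05 there were 34 members (41%), against 19.8% of all genes. The members that fell were 3 silent subunits (Kcns1, Kcns3 and Kcng1), the voltage-gated Kcnh2, the inward rectifier Kcnj12 and the auxiliary Kcnip2. Of the 83, limma called 0 higher, against 2.45% of all genes called higher. Voom on the recovered reads, a separate fit that called 894 genes in either direction, also called 0 members higher. At an unadjusted limma p under 0.05, 4 members were higher, and the share of all genes in that direction was not counted. In whole ganglia, fewer cells of a type and less RNA per cell cannot be told apart.

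Silent subunits form no channel alone but join voltage-gated pores such as Kcnb2 and change how those gate. Kcns1 (chromosome 2, 164163619 to 164171113, minus strand, mm10) is a silent subunit prominent in sensory neurons with large cell bodies. It was at 23, 23.8 and 26.8 FPKM in aged sham 1 to 3, at 18.4, 17.9 and 17.3 FPKM in aged injury 1 to 3, and at 20.1, 22.4 and 19.5 FPKM in young sham 1 to 3. The injury libraries lay below all 6 sham libraries. The mean went down 1.37-fold, from 24.5 ± 1.98 to 17.9 ± 0.547 FPKM (SD, 3 libraries each), or -0.45 on the log2 scale (SE 0.0752, limma adjusted p = 0.015).

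Kcng1 (chromosome 2, 168260117 to 168281736, minus strand), another silent subunit, showed the largest called fall. It measured 0.655, 0.795 and 0.999 FPKM in aged sham 1 to 3, against 0.316, 0.405 and 0.373 FPKM in aged injury 1 to 3. All injury values were below all sham values, at a low level. The mean fell from 0.816 ± 0.173 to 0.365 ± 0.045 FPKM, 1.96-fold, -0.97 on the log2 scale (SE 0.199, limma adjusted p = 0.032). Kcns3 (chromosome 12, 11090202 to 11151056, minus strand) measured 28.1, 24.7 and 25.8 FPKM in aged sham 1 to 3, and the injury libraries held 20.7, 22.5 and 20.4 FPKM. Its groups did not overlap, and it fell 1.24-fold (log2 change -0.31, SE 0.0678, limma adjusted p = 0.0416). Of the other silent subunits, Kcng4, Kcnv1 and Kcnf1 had log2 changes of -0.29, -0.28 and -0.31 with all injury values below all aged sham values, and none of the 3 passed (limma adjusted p = 0.0688, 0.099 and 0.162). Over the class, 8 of 9 tested members had a log2 change below 0, with a median of -0.31 beside -0.01 for all genes tested. The partner pore Kcnb2 had a log2 change of -0.33 that did not pass (limma adjusted p = 0.165).

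Kcnip2 (chromosome 19, 45791839 to 45816061, minus strand) encodes a calcium-binding protein that brings Kcnd pores to the membrane and slows their inactivation. It measured 39.8, 37.6 and 36.2 FPKM in aged sham 1 to 3, against 30.3, 31.2 and 28.5 FPKM in aged injury 1 to 3. The groups were well apart, and the young values of 32.6, 34.6 and 35.1 FPKM lay between them. It fell 1.26-fold (log2 change -0.33, SE 0.0594, limma adjusted p = 0.0184). Its relative Kcnip3 (log2 change -0.22, limma adjusted p = 0.0597) and the pore Kcnd1 (log2 change -0.37, limma adjusted p = 0.125) were lower in every injury library than in any aged sham library without passing, while Kcnip4 ran from 43.6 to 54.2 FPKM in aged sham and from 47 to 57.8 FPKM in aged injury.

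Kcnh2 (chromosome 5, 24319589 to 24351604, minus strand), the ether-a-go-go-related pore that repolarizes heart muscle and also acts in neurons, measured 24.2, 25 and 25.5 FPKM in aged sham 1 to 3, and the injury libraries held 20.3, 18.4 and 19.8 FPKM. The injury libraries fell into the range of the young ones, 18.2 to 22.1 FPKM, and below every aged sham library. The fall was 1.28-fold (log2 change -0.35, SE 0.076, limma adjusted p = 0.0373). Kcnj12 (chromosome 11, 61022564 to 61071131, plus strand), a strong inward rectifier that steadies the resting potential, measured 14.6, 14.4 and 12.4 FPKM in aged sham 1 to 3, and the injury libraries held 10.3, 10.7 and 9.41 FPKM. No values overlapped, and the fall was 1.36-fold (log2 change -0.44, SE 0.0878, limma adjusted p = 0.0283).

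Right upstream of their starts, the genes that fell differed in base content. RefSeq promoter windows (build GRCm38.p6, the assembly named mm10, 300 bases from upstream of a start to just past it) are shown for the called members with a single listed start. They are Kcns1 (chr2:164171064-164171363, minus strand, 64% G or C), Kcnip2 (chr19:45816014-45816313, minus strand, 67%), Kcnh2 (chr5:24329542-24329841, minus strand, 74.3%) and Kcnj12 (chr11:61065554-61065853, plus strand, 57%), written 5′ to 3′ along the gene's strand. Capitals mark GC boxes, GGGCGG or its reverse CCGCCC. The windows of Kcnh2 and Kcnj12 lie at starts inside the span of the annotated gene. Kcng1 had no listed window, and Kcns3 had more than 1 and is not shown.
Kcns1: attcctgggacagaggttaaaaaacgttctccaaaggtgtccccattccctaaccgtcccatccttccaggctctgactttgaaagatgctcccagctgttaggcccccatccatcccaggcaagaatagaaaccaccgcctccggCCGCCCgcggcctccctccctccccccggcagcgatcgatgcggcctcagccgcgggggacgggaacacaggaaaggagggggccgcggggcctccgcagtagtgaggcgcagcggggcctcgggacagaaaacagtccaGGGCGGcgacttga
Kcnip2: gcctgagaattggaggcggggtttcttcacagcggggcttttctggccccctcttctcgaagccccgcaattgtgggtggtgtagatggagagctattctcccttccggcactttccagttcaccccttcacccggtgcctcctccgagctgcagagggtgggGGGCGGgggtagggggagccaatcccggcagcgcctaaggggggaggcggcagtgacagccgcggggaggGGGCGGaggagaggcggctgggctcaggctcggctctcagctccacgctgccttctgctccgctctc
Kcnh2: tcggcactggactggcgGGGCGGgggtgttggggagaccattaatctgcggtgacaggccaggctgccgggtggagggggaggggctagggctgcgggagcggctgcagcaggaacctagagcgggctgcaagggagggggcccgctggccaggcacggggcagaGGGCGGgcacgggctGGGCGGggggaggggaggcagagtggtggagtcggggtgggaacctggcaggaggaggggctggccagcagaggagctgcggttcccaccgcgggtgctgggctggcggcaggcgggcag
Kcnj12: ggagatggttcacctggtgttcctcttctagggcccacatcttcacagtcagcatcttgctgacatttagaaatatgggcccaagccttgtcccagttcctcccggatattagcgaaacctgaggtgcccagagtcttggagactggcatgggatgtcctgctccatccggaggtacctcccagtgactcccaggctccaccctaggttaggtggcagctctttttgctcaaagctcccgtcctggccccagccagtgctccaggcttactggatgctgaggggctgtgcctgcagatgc
Kcnh2 held 3 GC boxes, Kcns1 and Kcnip2 held 2 each and Kcnj12 held 0. Windows were searched on both strands for 5 letter strings. The AP-1 string TGANTCA, the site of Jun and Fos dimers, was in 4 of the 95 windows of 70 members (4.21%) and in 7.81% of all 32851 windows. The CRE string TGACGTCA was in 0 of the 95 and in 1.79% of all. GC boxes were in 45 of the 95 (47.4%) and in 35.7% of all, the TATA string TATAAA in 5 (5.26%) and in 13.6%, and TTCAGCACC, the left part of the element bound by the repressor Rest, in 1 (1.05%) and in 0.371%. None of the 4 windows shown held any of the other 4 strings, and a match is a string of letters and not a shown binding site.

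The shift went beyond the called members. All 3 injury libraries lay below all 3 aged sham libraries in 34 of the 83 tested members (41%), against 13.7% of all genes tested, and above them in 4 members (4.82%), against 11.7% of all genes. With any 1 of the 6 libraries left out, 36 to 41 members (43.4% to 49.4%) lay lower, against 16.8% to 21.2% of all genes. Such a count cannot fall when a library is left out, so its rise does not test the shift. Leaving out aged sham 1, the library with mixed sex-linked signal and high Atf3, gave 40 members (48.2%), under the same limit. The members lower at an unadjusted limma p under 0.05, a count that can fall, were 30 with all libraries and 22 without aged sham 1. Leaving out another of the 6 gave 20 to 26. The share of all genes in that direction was not counted. The log2 change was below 0 in 60 of 83 members (72.3%), against 52.1% of all genes, and the members' median was -0.21 against -0.01. Of the 62 members averaging 1 FPKM or more, 50 were below 0.

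By class, the medians of the log2 change were -0.36 for the 10 tested inward rectifiers, -0.31 for the 9 silent subunits, -0.21 for the 28 voltage-gated genes and -0.20 for the 11 calcium- or sodium-activated genes. They were -0.03 for the 11 auxiliary and 0.00 for the 12 two-pore-domain genes, the classes nearest the median of all genes. The summed level of the silent subunits was 76.9, 73.4 and 76.5 FPKM in aged sham 1 to 3 and 60, 60 and 56.6 FPKM in aged injury 1 to 3. That of the inward rectifiers was 32, 33.1 and 31.7 FPKM in aged sham and 25.9, 26.5 and 25 FPKM in aged injury. Both sums were lower in every injury library than in any sham library of either age. The summed two-pore-domain genes, at 61.4 to 69.9 FPKM in aged sham and 60.9 to 63.4 FPKM in aged injury, overlapped. Over the whole family the sum was 1044 to 1078 FPKM in aged sham, 925 to 957 FPKM in aged injury and 959 to 1014 FPKM in young sham.

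**Figure D2:**
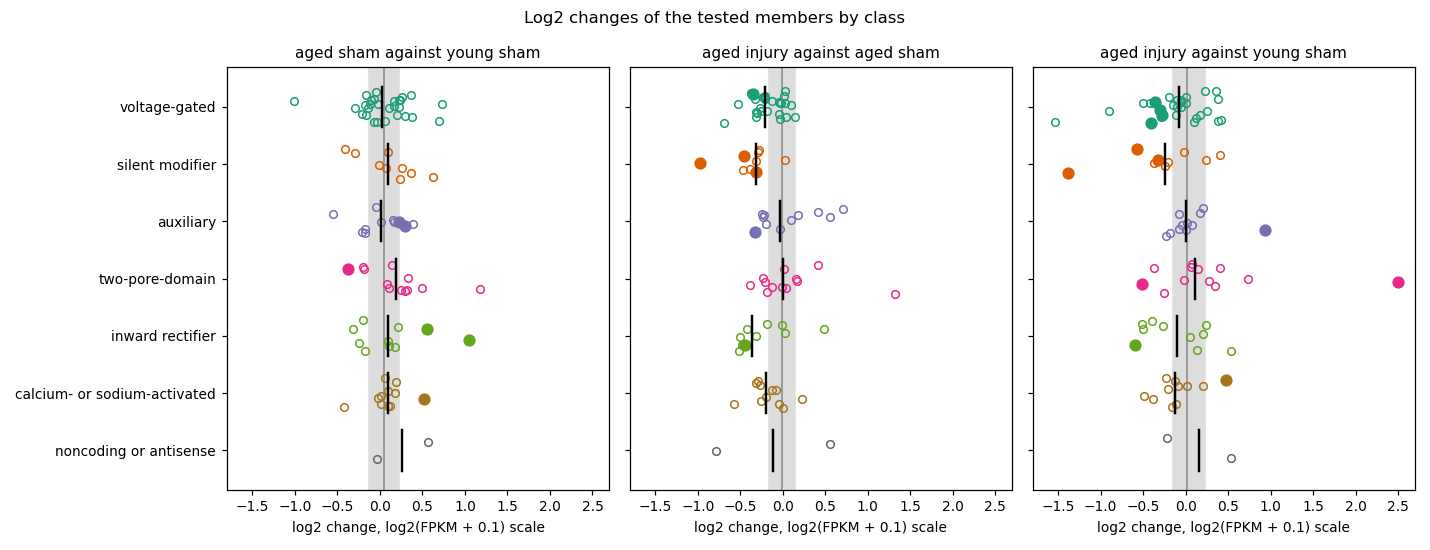
Log2 change of each tested member (points, log2(FPKM + 0.1) scale) by class in the 3 comparisons; filled points passed the limma test, black bars are class medians, and the grey line and band are the median and quartiles of all genes tested. After injury the silent subunits and inward rectifiers have medians of -0.31 and -0.36, left of the median of all genes at -0.01.

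After injury 4 members lay wholly above aged sham, namely Kcnj2, a strong inward rectifier (log2 change 0.49, limma adjusted p = 0.0944), Kcnma1, the large-conductance calcium-activated pore (0.23, adjusted p = 0.144), Kcne3, a single-span accessory subunit (0.55, adjusted p = 0.216), and Kcnk16, an alkaline-activated leak channel best known from pancreatic islets (1.32, adjusted p = 0.229). None of these passed. Kcnk18 measured 4.48, 4.32 and 4.92 FPKM in aged sham 1 to 3, and the injury libraries held 3.7, 3.49 and 3.23 FPKM, which missed the threshold (log2 change -0.39, limma adjusted p = 0.0549).

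Markers of neurons and glia were compared in the same libraries. The 10 pan-neuronal genes had a median log2 change of -0.07, the smallest limma adjusted p among them was 0.113 (Rbfox3), and their summed level was 4719 to 5331 FPKM in aged sham and 4277 to 4813 FPKM in aged injury. With the libraries set to an equal pan-neuronal level, 51 of 83 members were below 0 (median -0.16 against 0.03 for all genes), and Kcns1, Kcng1 and Kcnh2 kept their calls. Of 6 satellite glia genes, Glul rose (log2 change 0.41, limma adjusted p = 0.0153), and the summed level was 1506 to 1643 FPKM in aged sham and 1250 to 1394 FPKM in aged injury. The part of these markers in the members' falls was not tested further. All 5 genes of the injury list rose, from a summed 96.8 to 198 FPKM in aged sham to 345 to 487 FPKM in aged injury. Single libraries decided these calls. Without aged sham 2, aged injury 1 or aged injury 3, limma called 0 members (27, 23 and 23 at an unadjusted p under 0.05). Calls over all genes fell too, from 723 to 254, 151 and 152 in these fits. Kcnip2 was lost in those 3 of 9 cases (adjusted p up to 0.0747), Kcns1 without aged sham 2 or 3 or any injury library (up to 0.0699), and Kcns3 without any 1 library (up to 0.144). Kcnj12 was kept without young sham 2 or 3 or aged sham 3 and otherwise lost (up to 0.109), Kcng1 was kept without young sham 2 or aged sham 1 (otherwise up to 0.112) and Kcnh2 without young sham 2 or 3 (otherwise up to 0.12).

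**Figure D3:**
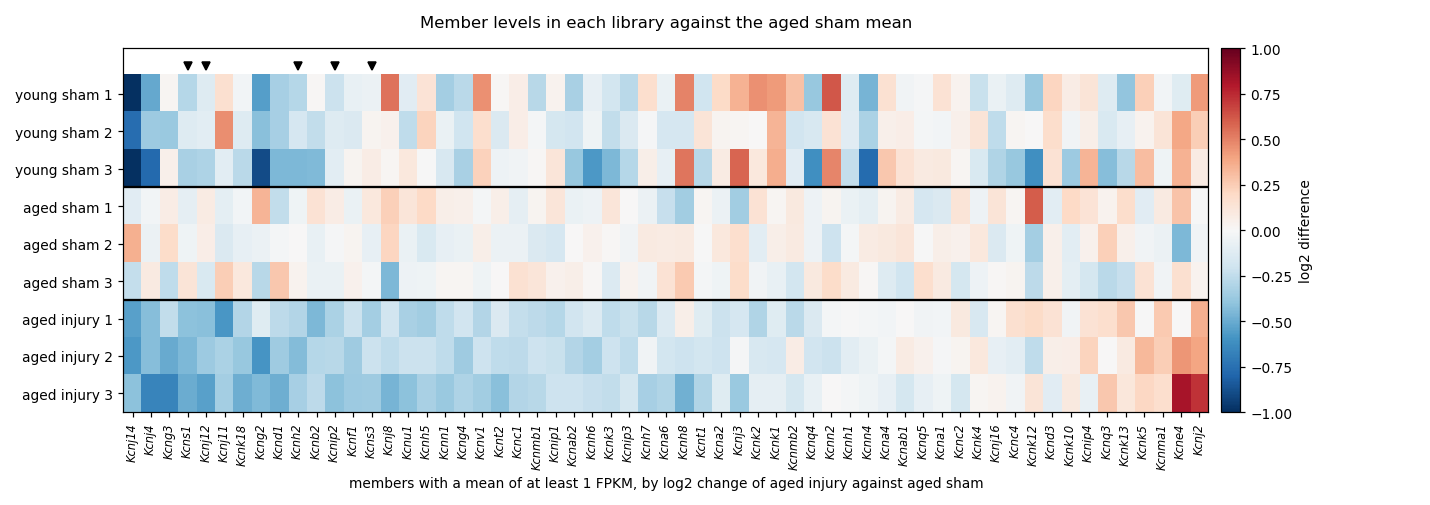
Log2 level of 59 of the 62 members averaging 1 FPKM or more, in each library, against the aged sham mean (colour, limited to 1 either way), ordered by the log2 change of aged injury against aged sham; triangles mark members called in that comparison. Blue (lower) cells fill most of the injury rows, where 48 of the 59 members shown are below 0 on average.

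In aged against young sham ganglia, most of the called members were higher. Setting aged sham beside young sham ganglia asks what differs without nerve injury. By limma, 6 of 83 members were called (7.23%), against 4.02% of all genes. The 5 that rose (6.02%, against 2.53% of all genes) were Kcnab2, Kcnip3, Kcnj4, Kcnj14 and Kcnn4, and the 1 that fell (1.2%, against 1.49%) was Kcnk1. At an unadjusted p under 0.05 there were 19 members (22.9%), against 26.3% of all genes. The split was 2 higher and 2 lower with equal library medians, 2 and 1 with quantile normalization, and 1 and 1 with an equal pan-neuronal level. Over all genes these settings called 817, 897 and 192, against 707 in the main fit. All aged values lay above all young ones in 17 members (20.5%), against 17.7% of all genes, and below them in 5 members (6.02%), against 11.5%.

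Kcnk1 (chromosome 8, 125995170 to 126030685, plus strand) encodes a weak leak channel. It shares 179 of its 2235 exonic bases (8.0%) with the predicted gene Gm45875 on the opposite strand. Without strand, reads on those bases cannot be split between these genes. Kcnk1 was at 41.1, 38.8 and 39.5 FPKM in young sham 1 to 3, at 31, 31.8 and 29.1 FPKM in aged sham 1 to 3 and at 28.1, 27.3 and 28.7 FPKM in aged injury 1 to 3. Young and aged libraries were widely apart, and aged sham 1, with Y-linked genes at 69.7% of the young mean, lay among the other aged ones. Age and sex of the pools cannot be told apart here, and the part of sex was not tested. The fall with age was 1.30-fold (log2 change -0.38, SE 0.0533, limma adjusted p = 0.0167). It was lost without young sham 1, young sham 3 or aged sham 3 (adjusted p up to 0.0825). Markers of myelinating Schwann cells fell beside it in 2 of 6 genes (Pmp22 among them), with summed levels of 2702 to 3108 FPKM in young and 1802 to 1917 FPKM in aged sham, and of satellite glia in 1 of 6 (Gja1). Their part in the fall of Kcnk1 was not tested.

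Among the rises, Kcnab2 (chromosome 4, 152390742 to 152477871, minus strand) measured 174, 190 and 167 FPKM in young sham, against 208, 218 and 227 FPKM in aged sham. It was 1.23-fold higher (log2 change 0.30, SE 0.0649, limma adjusted p = 0.042). Kcnab2 shares 125 of its 5578 exonic bases (2.2%) with the predicted gene Gm16334 on the same strand. Kcnip3 (chromosome 2, 127456498 to 127522094, minus strand) measured 83.4, 91.1 and 82.6 FPKM in young sham, against 101, 98.1 and 103 FPKM in aged sham, 1.17-fold higher (log2 change 0.23, SE 0.0539, limma adjusted p = 0.0483). Both auxiliary genes were high and their groups did not overlap. Kcnj14 (chromosome 7, 45816460 to 45824782, minus strand), a strong inward rectifier, rose 2.07-fold from a low level, with 0.572, 0.788 and 0.54 FPKM in young sham and 1.29, 1.82 and 1.17 FPKM in aged sham (log2 change 1.05, SE 0.204, limma adjusted p = 0.036). Its relative Kcnj4 (chromosome 15, 79483714 to 79505241, minus strand) measured 2.33, 2.58 and 1.92 FPKM in young sham, against 3.29, 3.21 and 3.58 FPKM in aged sham, 1.46-fold higher (log2 change 0.55, limma adjusted p = 0.0466). In both genes every aged sham library exceeded every young one.

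Kcnn4 (chromosome 7, 24370263 to 24386690, plus strand), the intermediate-conductance calcium-activated channel of immune and red blood cells, measured 6.64, 7.36 and 5.33 FPKM in young sham, against 8.59, 9.74 and 9.24 FPKM in aged sham. The groups did not overlap, and the rise was 1.43-fold (log2 change 0.52, SE 0.109, limma adjusted p = 0.0411). Macrophage markers moved with it: 2 of 5 rose (Cd68 and Csf1r), and their summed level was 10.3 to 10.7 FPKM in young and 14 to 27.2 FPKM in aged sham. The mean log2 level of these markers was 0.38, 1.39 and 0.84 above the young mean in aged sham 1 to 3 and 0.50, 1.39 and 0.76 above it in aged injury 1 to 3, where Kcnn4 held 9.07, 8.75 and 8.91 FPKM. Kcnn4 was highest in the aged sham library with the highest markers and lowest in the injury library with the highest markers. Their part in the rise was not tested. All 5 rises were kept without young sham 2 and lost without any other library, with an adjusted p of up to 0.129 for Kcnn4 and 0.161 for Kcnip3. Without young sham 1, young sham 3 or aged sham 3, limma called 0 members (17, 17 and 23 at an unadjusted p under 0.05), and without young sham 2 it called 11. Over all genes the calls went from 707 to 40, 42 and 23, and to 1536 without young sham 2.

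The age and injury comparisons share the aged sham libraries, so their values are set side by side and not related to each other. For Kcnab2 the log2 changes were 0.30 with age and -0.23 after injury, and for Kcnip3 0.23 and -0.22. For Kcnj4 they were 0.55 and -0.50, and for Kcnj14 1.05 and -0.51. For Kcnh2 they were 0.30 and -0.35 and for Kcns1 0.24 and -0.45. For the others called in either comparison they were 0.15 and -0.33 (Kcnip2), 0.18 and -0.44 (Kcnj12), -0.38 and -0.13 (Kcnk1), -0.41 and -0.97 (Kcng1), -0.01 and -0.31 (Kcns3) and 0.52 and -0.04 (Kcnn4). Each of these 12 members passed in 1 of the 2 comparisons.

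Aged injured against young sham ganglia, in which age, sex of the pools and injury all differ, gave the most calls. Of 83 members 12 were called (14.5%), against 13.1% of all genes, a share near that background. They split into 3 rises and 9 falls, while over all genes 8.2% rose and 4.89% fell. At an unadjusted p under 0.05 there were 31 (37.3%), against 29.4% of all genes. The split was 3 and 15 with equal library medians, 2 and 12 with quantile normalization, and 3 and 5 with an equal pan-neuronal level. Over all genes these settings called 2699, 2409 and 1780, against 2304 in the main fit. Lower values in all 3 injury libraries than in all 3 young ones were seen in 24 members (28.9%), against 15.5% of all genes, and higher values in 11 (13.3%), against 19.9%.

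Falls in Kcnk1, Kcng1 and Kcnv1 passed with each library left out in turn. Kcnk1 dropped 1.42-fold, from 39.8 ± 1.19 to 28 ± 0.705 FPKM (log2 change -0.51, limma adjusted p = 0.0011). Kcng1 was at 1.01, 1.2 and 1.11 FPKM in young sham against 0.316, 0.405 and 0.373 FPKM in aged injury, and fell 2.60-fold (log2 change -1.38, SE 0.199, limma adjusted p = 0.00426). Kcnv1 (chromosome 15, 45106284 to 45114920, minus strand), another silent subunit, was at 13.2, 10.8 and 11.3 FPKM in young sham, 9.5, 10 and 9.33 FPKM in aged sham and 7.83, 8.31 and 7.54 FPKM in aged injury. Its 3 groups were stacked without overlap, and it fell 1.49-fold (log2 change -0.57, SE 0.0834, limma adjusted p = 0.00447). For Kcng1 likewise, aged sham at 0.655 to 0.999 FPKM lay between young sham and aged injury.

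Further falls were in Kcns3 (log2 change -0.32), the high-threshold pore Kcnc1 (-0.30), the axonal Kcna2 (-0.28) and Kcnj11, the pore of the ATP-sensitive channel (-0.59), with limma adjusted p from 0.0174 for Kcns3 to 0.0468 for Kcnj11. These 4 were 1.21-fold to 1.50-fold lower. Kcns3 was lost without young sham 3 or aged injury 1 or 3, and Kcna2, Kcnc1 and Kcnj11 without any 1 injury library. Kcna2 was also lost without young sham 1 or 3, Kcnc1 without any 1 young library, and Kcnj11 without young sham 1 or 2 or aged sham 1 or 2 (adjusted p up to 0.141). Kcna1, the partner of Kcna2 in myelinated axons, was at 70.1 to 79.3 FPKM in young sham and at 69.6 to 70.9 FPKM in aged injury. Beside these falls, 1 of 10 pan-neuronal markers fell (Snap25, log2 change -0.25, limma adjusted p = 0.03), the list having a median of -0.01, and 3 of 6 Schwann cell markers fell, with a median of -0.31. Of 6 satellite glia markers, Apoe and Gja1 fell (log2 changes -0.34 and -0.68, limma adjusted p = 0.024 and 0.0104) and Glul rose (0.36, adjusted p = 0.0116), with a median of -0.33. Their part in these falls was not tested.

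The rises were in low members and in Kcnn4 (1.39-fold, log2 change 0.47, limma adjusted p = 0.0241, lost without young sham 1 or 3 or any 1 injury library, up to 0.0829). Macrophage markers rose beside Kcnn4 in 2 of 5 genes, with a summed 15.1 to 28.6 FPKM in aged injury, and their part was not tested. Kcnk16 (chromosome 14, 20261376 to 20269199, minus strand) was at 0.345, 0.183 and 0 FPKM in young sham, and its aged sham values were 0.884, 0.306 and 0.265 FPKM. Aged injury held 1.06, 1.33 and 1.28 FPKM, above all other libraries. The high aged sham value was that of aged sham 1, the library with high Atf3. The fitted change was 5.65-fold on the log2(FPKM + 0.1) scale (log2 change 2.50, SE 0.558, limma adjusted p = 0.0215), resting on at most 48 recovered reads in a library. The recovered values were 12, 6 and 0 in young sham, 30, 9 and 9 in aged sham and 45, 48 and 42 in aged injury. They share a factor of 3 that was set from annotated length, so the true reads may be fewer. Kcne3 (chromosome 7, 100176502 to 100184869, plus strand) measured 0.574, 0.515 and 0.313 FPKM in young sham, against 1.08, 0.892 and 0.933 FPKM in aged injury. It was 1.92-fold higher (log2 change 0.94, SE 0.225, limma adjusted p = 0.0275). Kcne3 shares 9 of its 1779 exonic bases (0.5%) with the predicted gene Gm34821. Kcnk16 and Kcne3 were each lost without young sham 3 or any 1 injury library (adjusted p up to 0.0812 and 0.0853). Without aged injury 1, 2 or 3 the members called came to 4, 5 and 3, and without young sham 1 or 3 to 6 each. Calls over all genes went from 2304 to 1194, 1474 and 869, and to 893 and 882 without young sham 1 and 3.

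**Figure D4:**
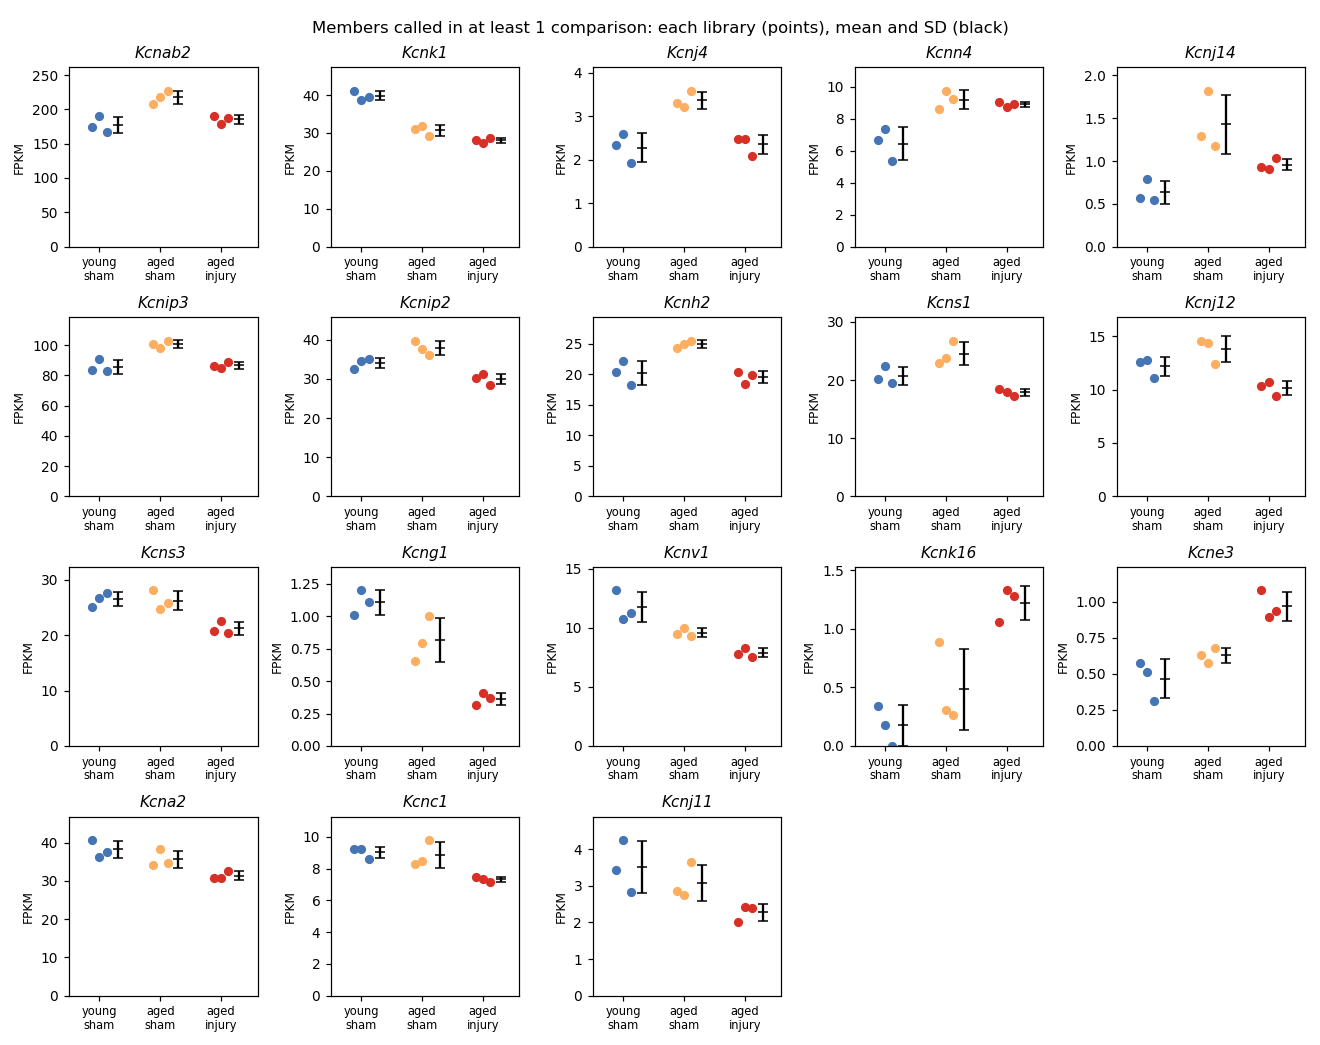
FPKM of 18 of the 20 members called in at least 1 comparison, with a point for each library and black bars for the group mean and SD (n = 3), each panel on its own axis from 0. Kcns1, Kcnip2 and Kcnj12 are lowest in aged injury, Kcnk1 separates young from aged libraries, and Kcnk16 and Kcne3 are highest in aged injury.

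Partner genes outside the family moved in single cases. Rest, a repressor of neuronal genes that is known to silence potassium channel genes in injured sensory neurons of rodents, measured 1.41, 1.39 and 1.49 FPKM in aged sham 1 to 3, and the injury libraries held 2.19, 2.23 and 2.12 FPKM. The groups did not overlap, and it rose 1.49-fold after injury (log2 change 0.57, SE 0.114, limma adjusted p = 0.0282), a call kept without young sham 2 or 3 and lost without any other library (adjusted p up to 0.106). The other repressors listed, Ehmt2 and Dnmt3a, had log2 changes of -0.17 and 0.01 that did not pass (limma adjusted p = 0.197 and 0.987). Of 7 organisers of the axonal domain that holds Kcna1 and Kcna2, 1 fell after injury: Lgi3, from 47 ± 4.12 to 36.8 ± 1.81 FPKM (log2 change -0.35, limma adjusted p = 0.0327, lost without young sham 1, aged sham 2 or 3 or any injury library). Dpp10, a single-span partner of Kcnd pores, fell with age from 41.2 ± 1.96 to 29.6 ± 2.41 FPKM (log2 change -0.48, limma adjusted p = 0.042, kept without young sham 2 or aged injury 2 or 3 and otherwise lost) and was at 27.5 ± 3.88 FPKM in aged injury. That last value was 1.51-fold below young sham (limma adjusted p = 0.00886), and this call was kept with each library left out. In aged injury against young sham, the pacemaker channel Hcn4 rose (log2 change 0.55, limma adjusted p = 0.0481), and Atp1b2 was the 1 of 6 sodium-potassium pump subunits that rose (0.57, adjusted p = 0.013). Atp1b2 was lost without young sham 1 or 3, and Hcn4 was kept without young sham 2 and otherwise lost. In the same comparison, of the 7 axonal organisers Cntn2 rose and Dlg4 fell (log2 changes 0.39 and -0.20, limma adjusted p = 0.0237 and 0.0407). Cntn2 was lost without young sham 1 or 3 or any injury library (adjusted p up to 0.0864), and Dlg4 without any 1 young or injury library (up to 0.105). Abcc8 and Abcc9, the sulfonylurea receptors of ATP-sensitive channels, had log2 changes of -0.40 and 0.41 after injury that did not pass (limma adjusted p = 0.241 and 0.348).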

How the data were processed

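The deposited values are FPKM per gene for 9 libraries, per the file headers. The submitters' processing notes name the build mm10 and FastQC 0.10.1, Bowtie2 2.2.3, TopHat2 2.0.12, HTSeq 0.6.0, SAMtools 0.1.19, limma 3.22.7, edgeR 3.8.6 and R 3.1.1, with no roles. Annotation release, strand handling and scaling: not given in the sources used here. Reads on exonic bases shared with another gene (32 members have some) cannot be told apart without strand, and not by strand where both genes lie on the same one. Library columns were matched by age, treatment and number, and 0 columns were left out.

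Symbols and positions came from GENCODE M21 (mm10). Genes averaging 0.2 FPKM or more were tested with limma 3.58.1 (R 4.3.3) on log2(FPKM + 0.1), with a variance trend, all 9 libraries in 1 fit, two-sided, Benjamini-Hochberg over 17601 genes, called at an adjusted p under 0.05. This scale understates changes of low genes. FPKM held whole-read steps: 17454 of the tested identifiers (99.2%) came within 0.001 of whole reads with a multiple of up to 20000. Recovered reads are known up to a common factor per gene, set from annotated length, which 79.4% of steps met within a factor of root 2. They served for depth and for voom. Scripts were checked on simulated data.

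Members named were those called, the 10 highest, the 3 largest rises and falls per comparison at a mean of at least 1 FPKM, a list of genes known in sensory neurons and glia, and those at the filter's edge. Some of these genes are not reported here. The 3 comparisons set aged sham against young sham, and aged injury against each sham group. The alternatives changed the pseudocount, the filter, the libraries fitted, the scaling, the weights and the block, or left out each library. The members, lists and counts of groups that do not overlap were chosen with earlier results of these data known.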

Additional observations from a re-analysis of the deposited data

How the results depend on the processing

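Each result was recomputed under 20 alternatives. The called changes of named members gave 476 such values, of which 291 stayed called in the same direction, 185 were lost and 0 reversed; 42 uncalled values became called, and 112 changed sign without a call on either side. For aged sham against young sham the 6 calls became 1 with no filter, 0 with the 2 groups alone, 3 with quantile normalization, 2 with an equal pan-neuronal level and 13 with array weights (18 members at an unadjusted p under 0.05 with the 2 groups alone), and ranged from 0 to 11 with 1 library left out. For aged injury against aged sham the 6 calls became 2 with the 2 groups alone and 3 with an equal pan-neuronal level, and ranged from 0 to 6. For aged injury against young sham the 12 calls became 22 with array weights and ranged from 3 to 13. With the replicate block the calls were 0 (18 at an unadjusted p under 0.05), 1 and 7 in the 3 comparisons. The labels state no blocking. Same-numbered deviations correlated at 0.062 to 0.27 between the aged groups and at -0.067 to -0.02 between young and aged. Each aged library correlated best with its own number in the other aged group, a hint of pairing from the data only. No young library correlated best with its own number in an aged group. Voom on recovered reads, chosen after seeing the data, called 6, 8 and 16 members, beside 965, 894 and 2548 of all genes. The background moved too: genes called over the whole table were 707, 723 and 2304, and 31, 302 and 1866 with the 2 groups alone, 101, 273 and 1561 with the block and 2020, 926 and 3755 with array weights. They were 192, 601 and 1780 with an equal pan-neuronal level. With 1 library left out they ranged from 23 to 1536, from 151 to 740 and from 869 to 2365. The causes of these shifts were not tested. With 3 libraries a group, an exact permutation test of a single member could not go below p = 0.1, and changes of members under 1 FPKM rest on few reads.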

Other observations

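The 4 antisense transcripts of the family were at low levels. Kcnmb4os2 was at 0.262, 0.596 and 0.265 FPKM in young sham, 0.537, 0.31 and 0.23 FPKM in aged sham and 0.52, 0.504 and 0.633 FPKM in aged injury, and its sense partner Kcnmb4, a beta subunit of the large-conductance channel, ran from 0.205 to 0.647 FPKM, with overlapping groups in both. Kcnd3os ranged from 0.0592 to 0.632 FPKM, while Kcnd3, the A-type pore on the opposite strand, stood at 13 to 16.4 FPKM.

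Kcnk12, a silent or weakly conducting relative of the halothane-inhibited Kcnk13, was at 7.46 FPKM in aged sham 1 against 3.84 and 4.05 FPKM in aged sham 2 and 3, and at 5.6, 4.07 and 5.34 FPKM in aged injury. It was highest in the aged sham library with the high Atf3.

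Kcnj8, the ATP-sensitive pore of vascular mural cells, was at 1.87, 1.29 and 1.27 FPKM in young sham and at 1.08, 1.03 and 0.879 FPKM in aged injury, a log2 change of -0.51 that did not pass (limma adjusted p = 0.171). In the same comparison the 8 mural and smooth muscle markers had a median log2 change of 0.08, with limma adjusted p from 0.143 for Des to 0.984 for Tagln.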
